A study of Mus musculus with 35 samples.

Results

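The sites described here are the peaks of Ikaros, a zinc finger transcription factor of lymphocytes, in wild-type (WT) mouse pre-B cell progenitors, split by whether the B lineage factors EBF1, PAX5 and E2A had a peak at the same place. The series holds 35 chromatin immunoprecipitation (ChIP-seq) samples of stroma-adherent pre-B cells at passages 3 to 8, from WT mice or from mice labelled IKDN, and 16 of the WT samples have a peak list. The IKDN samples were not used here. All values below come from the WT lists, with 1 library per target so that neither replicate error nor p-values can be given. The WT cells carry no allele, agent or treatment in the labels, and the number of mice or cultures behind each library is not given in the sources used here. The Ikaros list had 42655 peaks, and 21892 of them lay on chromosomes 1 and 10 to 19, the 11 chromosomes on which the Ikaros, EBF1, PAX5 and E2A lists were all complete. A factor was counted at an Ikaros peak when their intervals shared at least 1 bp. By that rule 1382 Ikaros peaks had all 3 factors, 4757 had 2, 7927 had 1, and 7826 had none and are called Ikaros alone.

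E2A, the product of Tcf3, and EBF1 switch on the early B cell programme, and PAX5 then holds cells to the B lineage. Ikaros acts in the same cells, both as a partner at enhancers and through chromatin remodelling complexes that can silence genes, and pre-B cells that lose it stay attached to stroma and keep dividing. H3K27ac marks active enhancers and promoters, H3K4me3 marks promoters, H3K27me3 is the Polycomb mark of silenced genes, and the Mediator subunit MED1 gathers at strong enhancers.

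The peak lists differ in length, which bears on every overlap below. On the 11 chromosomes the PAX5 list had 39830 peaks with a median width of 341 bp, against 12900 peaks of 191 bp for EBF1 and 14269 peaks for E2A. The depth of the libraries is not recorded in the lists and is unknown, so a missing peak means that none was called. In bulk cells, fewer cells with a mark and less of it per cell cannot be told apart. The Ikaros library was made with a mix of 2 antibodies. Each peak carries a score that the authors deposited without a stated scale, used here only to rank peaks within a list. The labels give the WT PAX5 and WT IRF4 libraries the same antibody catalogue number. A PAX5 peak overlapped 54.4% of IRF4 peaks, against 62.5% of ETS1, 50.4% of E2A, 26.0% of EBF1 and 21.7% of TEAD1 peaks. Whether the 2 libraries hold different targets was not tested. H3K4me3 lay at the transcription start site (TSS) of 11 of 14 B lineage marker genes, without Cd79a, Pax5 and Vpreb1, and also of 6 of 8 stromal, 2 of 8 T cell, 2 of 7 myeloid and 3 of 6 erythroid and megakaryocyte markers. The part of stromal or other cells in the marks below was not tested.

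Promoter windows with both kinds of site are shown here, and parts of a window can lie outside the peak. The lines below give the 250 bases before the annotated start of 7 genes, 5′ to 3′ on the strand of the gene, from RefSeq (GRCm38.p6). Capitals mark matches on either strand to GGGAA, the core of the Ikaros site, the palindrome of EBF1 with the arms TCCC and GGGA around 2 free bases, CAGCTG and CAGGTG, E-boxes of the kind E2A binds, AGGAAG, an ETS-like site, and GCGTGAC, a core of PAX5 sites. Hjurp, Vcl, Igll1 and Vpreb2 had Ikaros with all 3 factors. Zfp91, Rps26 and Syk had Ikaros alone. All marked letters of Hjurp and of Syk lie outside the Ikaros peak. So do the CAGGTG match of Igll1 and, in Vpreb2, the CAGCTG, the GGGAA match joined to it and the AGGAAG just before them. Hjurp and Vcl, and Zfp91 and Rps26, carried some of the highest-scored Ikaros peaks of their class with the centre in such a window, and the other 3 are B cell genes among those with the highest-scored ones.
Hjurp: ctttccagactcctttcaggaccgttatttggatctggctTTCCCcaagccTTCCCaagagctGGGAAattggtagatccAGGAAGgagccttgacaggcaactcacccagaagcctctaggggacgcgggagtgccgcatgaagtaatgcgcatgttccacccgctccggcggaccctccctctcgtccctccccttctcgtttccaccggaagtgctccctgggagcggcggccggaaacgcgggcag
Vcl: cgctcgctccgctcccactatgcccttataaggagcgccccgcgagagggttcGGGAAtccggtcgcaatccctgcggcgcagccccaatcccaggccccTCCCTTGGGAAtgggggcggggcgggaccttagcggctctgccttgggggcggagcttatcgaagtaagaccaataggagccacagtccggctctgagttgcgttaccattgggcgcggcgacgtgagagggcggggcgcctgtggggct
Igll1: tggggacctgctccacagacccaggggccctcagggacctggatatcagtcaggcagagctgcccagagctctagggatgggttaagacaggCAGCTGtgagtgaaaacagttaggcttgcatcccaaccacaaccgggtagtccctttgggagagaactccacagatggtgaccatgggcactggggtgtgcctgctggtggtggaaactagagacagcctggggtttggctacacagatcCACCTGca
Vpreb2: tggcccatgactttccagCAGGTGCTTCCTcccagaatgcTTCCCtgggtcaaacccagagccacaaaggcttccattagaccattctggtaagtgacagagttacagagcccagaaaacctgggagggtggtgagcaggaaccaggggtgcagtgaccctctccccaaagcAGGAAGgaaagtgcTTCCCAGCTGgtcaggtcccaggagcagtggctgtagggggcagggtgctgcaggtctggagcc
Zfp91: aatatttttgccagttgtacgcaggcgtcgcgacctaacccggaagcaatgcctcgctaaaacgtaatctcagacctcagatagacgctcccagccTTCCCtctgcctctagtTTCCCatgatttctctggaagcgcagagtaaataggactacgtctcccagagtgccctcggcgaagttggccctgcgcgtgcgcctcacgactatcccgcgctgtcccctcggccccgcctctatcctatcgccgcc
Rps26: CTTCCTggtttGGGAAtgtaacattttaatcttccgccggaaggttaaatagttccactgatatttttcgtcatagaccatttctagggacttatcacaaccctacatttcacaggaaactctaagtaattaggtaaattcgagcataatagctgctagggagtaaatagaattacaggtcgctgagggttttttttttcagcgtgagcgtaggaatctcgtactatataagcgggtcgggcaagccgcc
Syk: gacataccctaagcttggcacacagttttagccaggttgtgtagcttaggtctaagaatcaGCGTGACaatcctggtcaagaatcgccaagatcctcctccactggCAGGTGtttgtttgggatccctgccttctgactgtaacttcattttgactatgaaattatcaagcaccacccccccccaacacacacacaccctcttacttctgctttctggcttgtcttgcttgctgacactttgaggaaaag

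Vcl codes for vinculin, an actin anchor at cell adhesions, and its window (chr14:20929148-20929397, plus strand) holds an EBF1 palindrome whose right arm is also a GGGAA core. The Ikaros peak there had a score of 97.5, with its centre 20 bp from the nearest GGGAA, and the EBF1, PAX5 and E2A peaks had scores of 67.7, 31.2 and 7.65. Igll1 codes for the lambda-like part of the surrogate light chain, and its window (chr16:16863986-16864235, minus strand) holds both E-boxes and no GGGAA. Its Ikaros peak scored 93.4 beside an EBF1 peak of 116.1, a PAX5 peak of 136.2 and an E2A peak of 255.3. Vpreb2 codes for a VpreB part of the same chain, and its window (chr16:17980315-17980564, plus strand) holds both E-boxes and 2 GGGAA cores, 1 of them sharing letters with the CAGCTG. Hjurp, a chaperone that loads the centromeric histone, has 3 GGGAA cores in its window (chr1:88277580-88277829, minus strand), the nearest 113 bp from the Ikaros centre. In Zfp91, a zinc finger protein gene (chr19:12796124-12796373, minus strand), the Ikaros centre lay 2 bp from a GGGAA core, and in Rps26, a ribosomal protein gene (chr10:128626507-128626756, minus strand), 4 bp from one. The window of Syk, the kinase that starts pre-B cell receptor signalling (chr13:52596632-52596881, plus strand), holds no GGGAA but a CAGGTG and a GCGTGAC. Both lie outside the Ikaros peak (chr13:52596768-52596944), and whether an E2A or PAX5 peak covers them was not examined. No E2A or PAX5 peak overlapped the Ikaros peak itself. All 7 promoters had H3K27ac and H3K4me3 peaks and no H3K27me3 peak.

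Over the 14798 RefSeq promoter windows of 300 bp (250 bases before to 50 after the start) on the 11 chromosomes, the EBF1 and E2A letters went with the peaks of their own factor. The EBF1 palindrome was in 10.3% of 563 windows with an EBF1 peak centre, against 0.492% of the 14235 others and 0.865% of all windows. CAGCTG was in 25.5% of 1750 windows with an E2A centre, against 15.4% of the others and 16.6% of all. GGGAA is short and lies in 62.8% of all windows. It was in 70.6% of the 180 windows with an Ikaros centre and all 3 factors and in 78.6% of the 351 with Ikaros alone (exact 95% intervals 63.3% to 77.1% and 74.0% to 82.8%). The median GC content of these windows was 64.0% and 57.0%, against 53.0% for all. The EBF1 letters were in 3.89% of the all-3 windows and in 0.570% of those with Ikaros alone, CAGCTG in 25% and 14.8%, CAGGTG in 16.7% and 12.8% (20.2% of all), and AGGAAG in 36.1% and 45.0% (35.4% of all). GCGTGAC was in 6.67% and 1.71% of them and in 2.15% of all windows. It was in 5.64% of windows with a PAX5 and no IRF4 centre, in 2.63% with an IRF4 and no PAX5 centre, and in 6.73% with both. Windows with a PAX5 centre had a median GC content of 63.3%, against 50.7% without one, and its part in the GCGTGAC shares was not tested.

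Most Ikaros peaks had at least 1 of the 3 factors: 14066 of 21892, or 64.3% (exact 95% interval 63.6% to 64.9%; all intervals here cover counting error only). The share was nearly flat over chromosomes, with 63.1% on chromosome 10 as the lowest and 65.8% on chromosome 14 as the highest. PAX5, with the longest list, was at 50.8% of Ikaros peaks, E2A at 29.2% and EBF1 at 18.6%. Read from the other side, 44.8% of E2A, 31.5% of EBF1 and 27.9% of PAX5 peaks overlapped an Ikaros peak, so the factor with the largest share of Ikaros peaks had the smallest share of its own. For the factors outside the split these shares were 59.1% of IRF4, 56.1% of Aiolos and 55.5% of ETS1 peaks, and 19.8% of TEAD1 peaks. Aiolos is the closest relative of Ikaros and IRF4 and ETS1 are lymphoid regulators, whereas TEAD1 is the DNA-binding end of the Hippo pathway.

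PAX5 without the others was the most frequent state of a co-bound site, at 24.7% of Ikaros peaks, and PAX5 with E2A followed at 15.2%. All 3 factors met at 6.31% (5.99% to 6.64%), more than EBF1 with PAX5 (4.67%) or EBF1 with E2A (1.90%). This share was 3.90% with an overlap of at least 50% of the Ikaros peak, 4.07% with factor lists of equal length, 10.9% at or above the median score, 2.35% without the PAX5 peaks that overlap IRF4 and 3.46% without the Ikaros peaks that do. E2A was at 42.2% of Ikaros peaks with PAX5, against 15.8% of those without it, and PAX5 at 73.5% of those with E2A, against 41.5% of those without. EBF1 was at 28.1% of Ikaros peaks with E2A, against 14.6% of those without. The Ikaros score followed the company: its median was 15.6 with all 3 factors, 8.89 with 2, 6.39 with 1 and 5.28 for Ikaros alone. Ranked by score, the Ikaros peaks were divided into 4 score groups of 5473 peaks each. Of the all-3 sites 65.6% were in the top score group and 3.84% in the bottom one, against 12.8% and 36.7% of the Ikaros-alone sites. These groups meet at scores of 4.45, 6.67 and 11.1. From the lowest to the highest score group the share with any factor was 47.5%, 59.2%, 68.7% and 81.7%, and the share with all 3 was 0.968%, 2.23%, 5.50% and 16.6%.

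**Figure D1:**
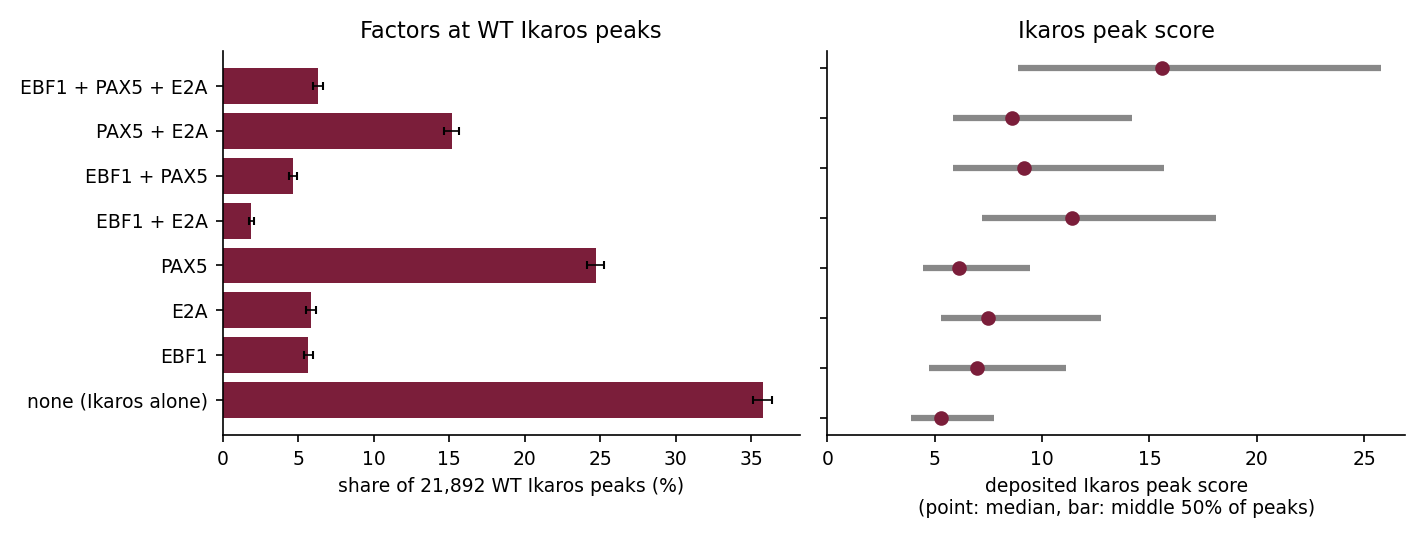
Left: share of the 21892 WT Ikaros peaks (x axis, %) with each combination of WT EBF1, PAX5 and E2A peaks, with exact 95% intervals. Right: median deposited Ikaros score (point) and the middle 50% of the scores (bar) in each combination. Ikaros alone is the most frequent state with the lowest median score, 5.28, and the all-3 state has the highest, 15.6.

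E2A peaks met Ikaros far more often where EBF1 and PAX5 were also present. Ikaros was at 82.8% of the 1669 E2A peaks with both EBF1 and PAX5 (80.9% to 84.6%), at 60.5% of those with PAX5 but not EBF1, at 55.1% of those with EBF1 but not PAX5, and at 19.9% of the 6332 with neither. Peak centres lay close together at shared sites. The median distance between the Ikaros centre and the factor centre was 42 bp for EBF1, 52 bp for E2A and 56 bp for PAX5, with 56.5%, 48.9% and 45.7% of pairs within 50 bp. Peaks this narrow have to lie near each other to overlap at all, so these distances describe the shared sites and are no measure of preference. Few sites were counted as co-bound by a short overlap only: 205 of the 14066 co-bound peaks shared at most 20 bp with any factor, and 727 of the 7826 Ikaros-alone peaks had a factor peak edge within 100 bp. H3K27ac was at 82.0% of the 205 and at 81.8% of the 727, so sites on both sides of the 1 bp rule had shares close to each other. Both were above their class as a whole, with 70.2% of all co-bound and 50.1% of all Ikaros-alone sites. The 727 are 9.29% of the Ikaros-alone class. The all-3 class rested more on the rule, with 854 sites by an overlap of at least 50% of the Ikaros peak in place of 1382.

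All-3 and Ikaros-alone sites had similar shares within 2.5 kb of a TSS, but all-3 sites were annotated to a promoter more often than Ikaros-alone sites. The deposited annotation placed 18.0% of all-3 sites (16% to 20.1%) and 11.7% of Ikaros-alone sites (11% to 12.4%) in a promoter, and 3.11% and 7.30% lay between 1 and 2.5 kb from a TSS. A TSS lay within 2.5 kb of 25.3% of the all-3 sites and of 27.2% of the Ikaros-alone sites, a difference of -1.99 percentage points (Newcombe 95% interval -4.42 to 0.56), beside 29.4% of all Ikaros peaks. This interval includes 0, and the sign depends on the settings: the difference was 2.20 points with a TSS distance of 1 kb and 6.78 points with the 3 factor lists cut to 12900 peaks each, but -10.0 points among Ikaros peaks at or above the median score and -5.23 points without the Ikaros peaks that overlap IRF4. Sites with PAX5 and E2A but no EBF1 were the most proximal combination, at 38.5%, and those with EBF1 and PAX5 the least, at 22.1%. Introns held 34.7% of all-3 and 40.7% of Ikaros-alone sites and intergenic space 40.9% and 42.9%, per the deposited annotation, and the median distance to a TSS was 17792 bp and 14975 bp. Among distal sites, those over 2.5 kb from a TSS, a repeat was annotated at 19.7% of all-3 and at 31.8% of Ikaros-alone sites, among them LTR elements (6.58% and 10.3%), SINEs (4.45% and 7.67%), simple repeats (0.774% and 3.57%) and low-complexity sequence (0.290% and 3.44%).

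Of H3K27ac, H3K4me3 and H3K27me3, H3K27ac differed most between the classes. A WT H3K27ac peak lay at 85.9% of the 1382 all-3 sites and at 50.1% of the 7826 Ikaros-alone sites, a difference of 35.8 points (33.6 to 37.9), beside 63.0% of all Ikaros peaks. The gap was in distal sites above all. There 82.0% of 1033 all-3 and 37.5% of 5694 Ikaros-alone sites were acetylated, against 97.4% of 349 and 83.8% of 2132 sites near a TSS. With 2 factors the distal share was 70.8% and with 1 factor 50.6%. Among distal sites with a single factor it was 68.3% for E2A, 49.9% for EBF1 and 46.8% for PAX5, and with 2 factors it was 77.8% for EBF1 with E2A, 74.4% for PAX5 with E2A and 59.0% for EBF1 with PAX5. Each combination with E2A was thus above the one without it. The H3K27ac peak over an all-3 site had a median width of 3328 bp, against 2615 bp with 2 factors, 2354 bp with 1 factor, 2560 bp over an Ikaros-alone site and 1515 bp over all H3K27ac peaks, so width did not follow the number of factors. The difference over all sites was 14.1 points among Ikaros peaks at or above the median score and 21.9 points without the PAX5 peaks that overlap IRF4.

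Other enhancer marks ran the same way. At distal sites H3K4me1, the general enhancer mark, lay at 92.8% of all-3 and 52.4% of Ikaros-alone sites, MED1 at 35.0% and 4.72%, and RNA polymerase II at 53.4% and 20.7%. No peak of H3K27ac, H3K4me1, H3K4me2, H3K4me3 or H3K27me3 was called at 2.03% of distal all-3 sites (1.26% to 3.09%) and at 38.4% of distal Ikaros-alone sites (37.1% to 39.7%). Factors outside the split were also more frequent at all-3 sites: ETS1 at 63.0% and 12.1%, IRF4 at 59.0% and 13.6%, TEAD1 at 33.6% and 9.80%, and Aiolos at 17.1% and 2.42%. The Aiolos gap depended on the Ikaros score: its shares were 26.2% and 16.3% in the top score group, and 0 of 301 all-3 sites (exact 95% upper bound 1.22%) and 1.17% of Ikaros-alone sites in the group below it. Of the Ikaros-alone sites 5486, or 70.1%, had no peak of any of these 4 lists, and 44.2% of them were acetylated, against 63.9% of the 2340 with at least 1.

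**Figure D2:**
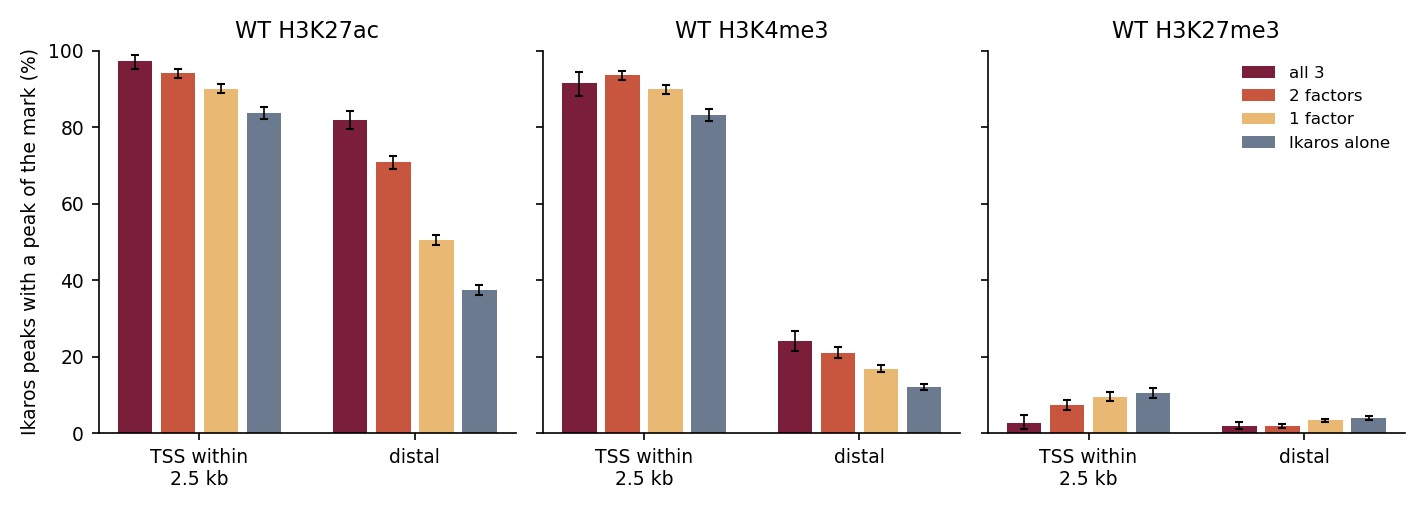
Share of WT Ikaros peaks (y axis, %) that overlap a WT H3K27ac, H3K4me3 or H3K27me3 peak, for sites with a TSS within 2.5 kb and distal sites, by the number of factors (all 3, 2, 1, Ikaros alone), with exact 95% intervals. H3K27ac falls from all-3 to Ikaros-alone sites mainly in the distal group (82.0% and 37.5%), and H3K27me3 is rare in every class.

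Part of the gap in H3K27ac went with the Ikaros score. Among distal sites, from the lowest to the highest score group, H3K27ac lay at 47.4%, 59.5%, 67.5% and 90% of all-3 sites and at 17.4%, 36.6%, 58.1% and 76.3% of Ikaros-alone sites. The difference within these 4 groups was thus 29.9, 22.9, 9.40 and 13.7 points, each with a 95% interval above 0, against 44.5 points over all distal sites. The lowest score group holds only 38 distal all-3 sites, with an interval of 15.0 to 45.4 points. MED1 was called mostly at the highest-scored sites: in the top score group it lay at 44.6% of distal all-3 and 23.9% of distal Ikaros-alone sites, against 5.26% and 0.378% in the lowest.

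**Figure D3:**
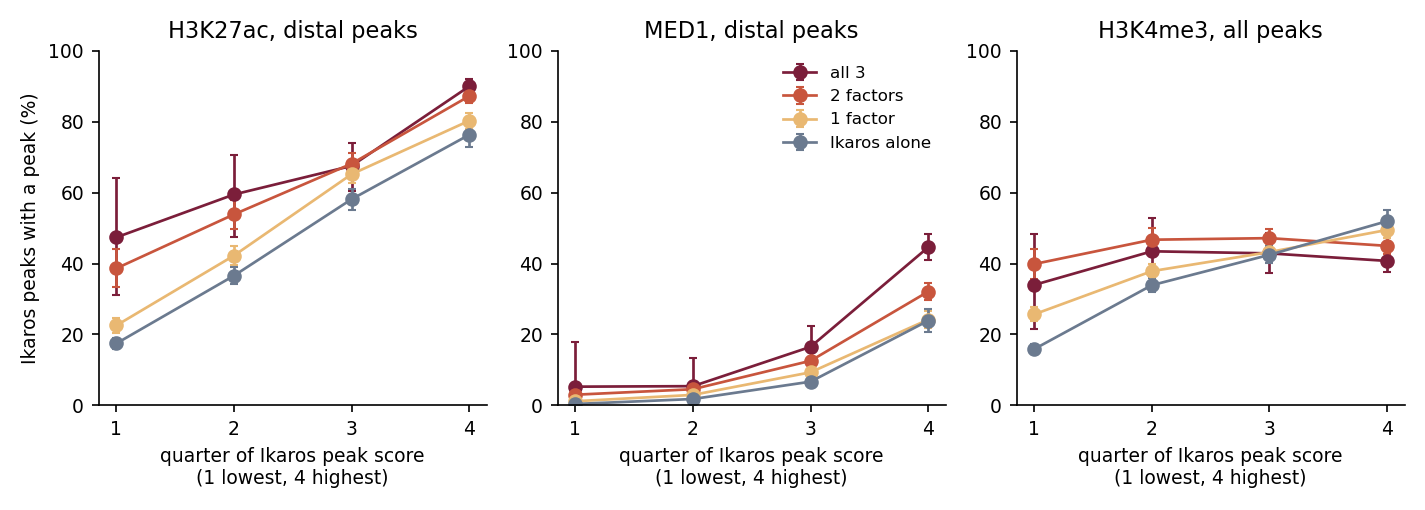
Share of WT Ikaros peaks (y axis, %) with a WT H3K27ac or MED1 peak (distal sites) or a WT H3K4me3 peak (all sites), by Ikaros score group (x axis, 1 lowest to 4 highest) and number of factors, with exact 95% intervals. H3K27ac and MED1 rise with the score in every class; in the top score group H3K4me3 lies at 40.7% of all-3 and 51.9% of Ikaros-alone sites.

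H3K4me3 gave no stable difference. It lay at 41.2% of all-3 and 31.5% of Ikaros-alone sites, a difference of 9.71 points (6.94 to 12.5), beside 37.7% of all Ikaros peaks. Among Ikaros peaks at or above the median score the difference turned to -4.52 points, and in the top score group it was -11.2 points (-15.6 to -6.74), where 19.8% of all-3 and 34.4% of Ikaros-alone sites were near a TSS. Without the Ikaros peaks that overlap IRF4 it was 1.93 points, with an interval of -1.95 to 6.03. Near a TSS, where the mark belongs, H3K4me3 lay at 91.7% of all-3 and 83.3% of Ikaros-alone sites.

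H3K27me3 was rare at Ikaros peaks, and over all sites it was rarer with all 3 factors. It lay at 2.03% of all-3 and 5.65% of Ikaros-alone sites, a difference of -3.62 points (-4.44 to -2.61), beside 4.83% of all Ikaros peaks. The difference was -2.29 points at or above the median score and -2.19 points without the PAX5 peaks that overlap IRF4. The gap was wider near a TSS, with 2.58% and 10.4%, than at distal sites, with 1.84% and 3.86%. Within score groups, lowest to highest, the difference was -1.44, -1.72, -2.75 and -0.66 points, and its interval excludes 0 in the group below the top one and includes 0 in the other 3. Among distal sites it was above 0 in the second group, at 0.56 points, and in the top one, at 0.16 points, and all 4 intervals include 0. H3K27me3 together with H3K4me3 was found at 2.01% of all-3 and 8.26% of Ikaros-alone sites near a TSS. Such a pair of opposed marks can come from 1 set of nucleosomes or from different cells, which cannot be told apart here. The 3 highest-scored of the 9 proximal all-3 sites with H3K27me3 were at Kcnh8 (score 29.5), F2r (23.1) and Ptprs (13.3), which code for a potassium channel, the thrombin receptor and a receptor phosphatase, and all 3 also had H3K27ac. Of the 222 Ikaros-alone ones the highest were at Wasf1 (16.4), an actin regulator, Prdm1 (15.8), the driver of plasma cell differentiation, and Fbxo43 (15.3), and the sites at Prdm1 and Fbxo43 had no H3K27ac. These 6 genes were chosen after their values were seen.

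Seen from the factor peaks, the presence of Ikaros went with acetylation for each of the 3. H3K27ac lay at 81.8% of 6398 E2A peaks with Ikaros, against 41.8% of 7871 without. For EBF1 the shares were 71.7% of 4062 peaks with Ikaros and 23.2% of 8838 without, and for PAX5 71.6% of 11099 and 13.4% of 28731. At distal peaks the order was the same, with 75% and 25.3% for E2A, 66.1% and 16.8% for EBF1, and 61.7% and 7.87% for PAX5. Peaks with Ikaros also scored higher in their own list. Over all peaks the median scores with and without Ikaros were 14.1 and 9.41 for E2A, 15.8 and 7.71 for EBF1, and 23.1 and 12.5 for PAX5. The part of the factor score in these gaps was not tested. E2A peaks that had both EBF1 and PAX5 were acetylated at 85.9% of 1382 with Ikaros, against 70.4% of 287 without (64.7% to 75.6%), and at distal sites at 82.1% and 53.5%. Their E2A scores differed too, with a median of 21.8 with Ikaros and 15.3 without, and its part in the gap was not tested. H3K27me3 lay at 3.22% of E2A peaks with Ikaros and 5.82% without, at 3.52% and 7.28% of EBF1 peaks, and at 4.82% and 7.65% of PAX5 peaks.

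**Figure D4:**
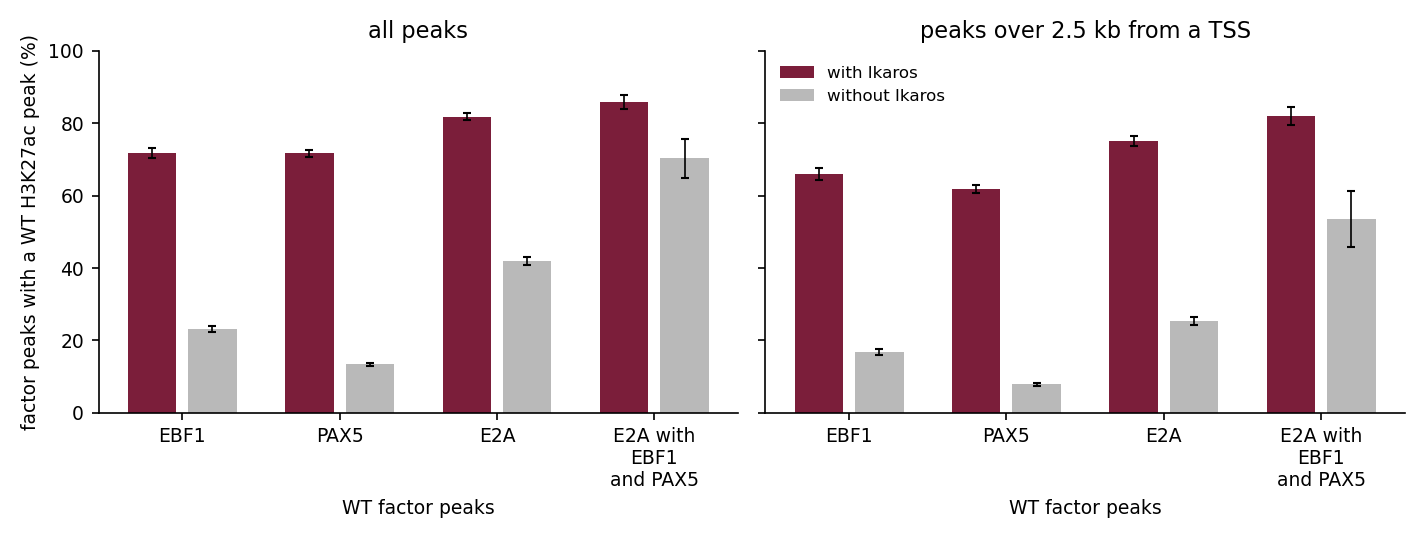
Share of WT EBF1, PAX5 and E2A peaks, and of E2A peaks with EBF1 and PAX5, that overlap a WT H3K27ac peak (y axis, %), with and without a WT Ikaros peak, for all peaks and for those over 2.5 kb from a TSS, with exact 95% intervals. The share is higher with Ikaros in each of the 8 pairs, with the largest gap for PAX5 (71.6% and 13.4% over all peaks). Factor peaks with Ikaros also have the higher median score in each pair.

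Genes were assigned by the deposited name of the nearest TSS, so a distal site may act on another gene. Of 9903 protein-coding genes on the 11 chromosomes, 9.97% had an all-3 site, 53.5% a site with any of the factors, 37.5% an Ikaros-alone site, 9.16% Ikaros-alone sites without any co-bound one, and 62.6% any Ikaros peak. All-3 sites were named at 1128 genes of any kind, 187 of them with at least 2, and 768 of the 1128 also had an Ikaros-alone site. A gene with more Ikaros peaks has more chances of an all-3 site, and the lists differ in this: the median was 12.5 Ikaros peaks for the B lineage transcription factors, 1.5 for myeloid and for extra-lineage genes and 0 for stromal genes, against 1 over all protein-coding genes.

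Among the B lineage transcription factors 6 of 12 genes had an all-3 site, beside 9.97% of all protein-coding genes. All 12 had a co-bound site of some kind, beside 53.5%. Bcl11a, a zinc finger factor needed for B cell development, had 3 (scores 24.7, 37.2 and 72.2), all between 104 and 178 kb from its TSS and all acetylated. Runx1, a partner of EBF1 in early B cells, had 2 (45.3 and 45.8), Bcl6, a repressor that protects pre-B cells, had 2 (15.8 and 13.9), and Tcf4, which codes for the E protein E2-2, had 1 (48.6) in an intron. Of the genes of Ikaros and the 3 factors, Ebf1, Ikzf1 and Tcf3 are among the 12. Pax5 is not among them, and Ikaros peaks at Pax5 were not counted. The Ebf1 body (chr11:44618100-45008096) held 19 Ikaros peaks, of which 2 had all 3 factors, 5 had 2, 8 had 1 and 4 were alone. Of the 19 peaks 17 were acetylated. The nearest TSS name of the 2 all-3 sites is Gm12159, so the name Ebf1 itself has no all-3 site. The Ikzf1 body, the gene of Ikaros (chr11:11684962-11772930), held 9 Ikaros peaks, none with all 3 factors, 1 with 2, 3 with 1 and 5 alone, and 6 of the 9 were acetylated. The Tcf3 body (chr10:80409541-80433976) held 1 peak, of Ikaros alone, with H3K27ac and H3K4me3. When the Ikaros peaks that overlap IRF4 were left out, 1 of the 12 genes had an all-3 site and the share over all protein-coding genes was 4.65%.

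Of the genes of the pre-B cell receptor and the B cell surface 8 of 15 had an all-3 site, beside 9.97% overall. Cxcr4, the chemokine receptor that keeps B cell precursors in the marrow, had 5, with scores of 8.61 to 38.1, between 15.9 and 109 kb upstream of its TSS, and all 5 were acetylated. The surrogate light chain genes Igll1 and Vpreb2 had 1 each at the promoter (93.4 and 35.6), and Vpreb3, which binds the chain in the endoplasmic reticulum, had 1 at 1.42 kb (48.3). Cd79b, the signalling chain of the receptor, had 1 (29.5), 6.21 kb from its TSS, and Ptprc, the CD45 phosphatase, had 1 in an intron (28.3). Vpreb1 had no Ikaros peak. Of these 15 genes 3 had an all-3 site without the Ikaros peaks that overlap IRF4, beside 4.65% of all protein-coding genes.

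In pre-B cell receptor signalling 6 of 13 genes had one, beside 9.97% of all protein-coding genes. The strongest was the promoter of Pik3ap1, the adaptor BCAP that couples the receptor to PI3 kinase, with an Ikaros score of 118.4 beside EBF1 at 152, PAX5 at 158.9 and E2A at 126.5. Inpp5d, the phosphatase SHIP1 that opposes PI3 kinase, had 2 (45.8 and 25), at 1.79 and 37.9 kb. Blnk, the adaptor that Syk phosphorylates, had 1 in an intron (18.3), where the PAX5 peak scored 133.7 and the EBF1 peak 4.28, the lowest score in the EBF1 list. Blk, which codes for a Src-type kinase, had 1 (15.6). Syk itself had none, with 1 site with 2 factors, 2 with 1 factor and the Ikaros-alone site at the promoter shown above. 1 of the 13 genes had an all-3 site without the Ikaros peaks that overlap IRF4. The share over all protein-coding genes was then 4.65%, from which 1 of 13 cannot be told.

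The IL-7 receptor and STAT5 list, which drives growth of pre-B cells, had 5 of 11 genes with an all-3 site. The cell cycle and Myc list, the brakes and motors of division, had 6 of 11, beside 9.97% of all protein-coding genes. Bcl2, a survival factor, had 2 (53.9 and 9.72), and the weaker of them had no H3K27ac. Pim1, a kinase induced by STAT5, had 2 (24.5 and 18.1). Il7r had none among 11 Ikaros peaks, all of which were acetylated. Mycn, a Myc family gene of progenitors, had 2, of which the promoter site (14.7) was acetylated and the one 129 kb away (13.1) was not. Btg1, an antiproliferative gene, had 2 (42.8 and 9.17), and Ccnd3, the D-type cyclin of pre-B cells, and Btg2 had 1 each (14.4 and 51.1). Myc had no all-3 site among 3 Ikaros peaks. Without the Ikaros peaks that overlap IRF4, 3 of the 11 genes of the first list and 1 of the 11 of the second had one. The share over all protein-coding genes was then 4.65%, from which 1 of 11 cannot be told.

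The myeloid and stromal lists are too short for their counts of all-3 genes to be told from the background of 9.97%. These counts were 0 of 14 myeloid and 0 of 14 stromal genes, and 11 and 5 of the 14 had any Ikaros peak, beside 62.6% of all protein-coding genes. Ikaros-alone sites were found at 9 of 14 myeloid, 3 of 14 stromal and 5 of 10 T cell genes, beside 37.5% of all protein-coding genes, and 3 of the 14 myeloid genes (Elane, Lyz2 and Mpo, which code for granule enzymes and lysozyme) had Ikaros alone and no co-bound site. Col6a1, a collagen chain, was the 1 such gene of the stromal list, Akt1, a kinase downstream of PI3 kinase, of the IL-7 list, Ptk2, the focal adhesion kinase, of the adhesion list, and Ctgf, a secreted target of the Hippo pathway, of the Hippo list. The list of extra-lineage and progenitor transcription factors had 4 of 10 genes with an all-3 site: Erg (36.7, with the E2A peak at 315.3), Nfe2 (30.0), Sox4 (14.7) and Runx2 (10.8, the one without H3K27ac). No gene of that list had one with an overlap of at least 50% of the Ikaros peak, where the share over all protein-coding genes was 6.40%. A list of 10 genes is too short to tell 0 from that share. Without the Ikaros peaks that overlap IRF4, 2 of its genes had one, beside 4.65% of all protein-coding genes. Of the adhesion and integrin genes 5 of 17 had one, with 2 each at Nedd9, a scaffold of integrin signalling (53.9 and 36.4), and Tns3, a tensin (27 and 12.8), and 1 each at Vcl, Ptk2b and Arhgap26. The Hippo list had 1 of 12 (Nuak2, 30.3), V(D)J recombination 2 of 8 (Dntt, the template-free polymerase, 23.3, and Poll, 18.6), and housekeeping 1 of 9 (Ywhaz, with 3). Without the Ikaros peaks that overlap IRF4 the Hippo count was 0 and the V(D)J count 1. Among the housekeeping genes Polr2a, Ppia and Tubb5 had Ikaros alone and no co-bound site.

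**Figure D5:**
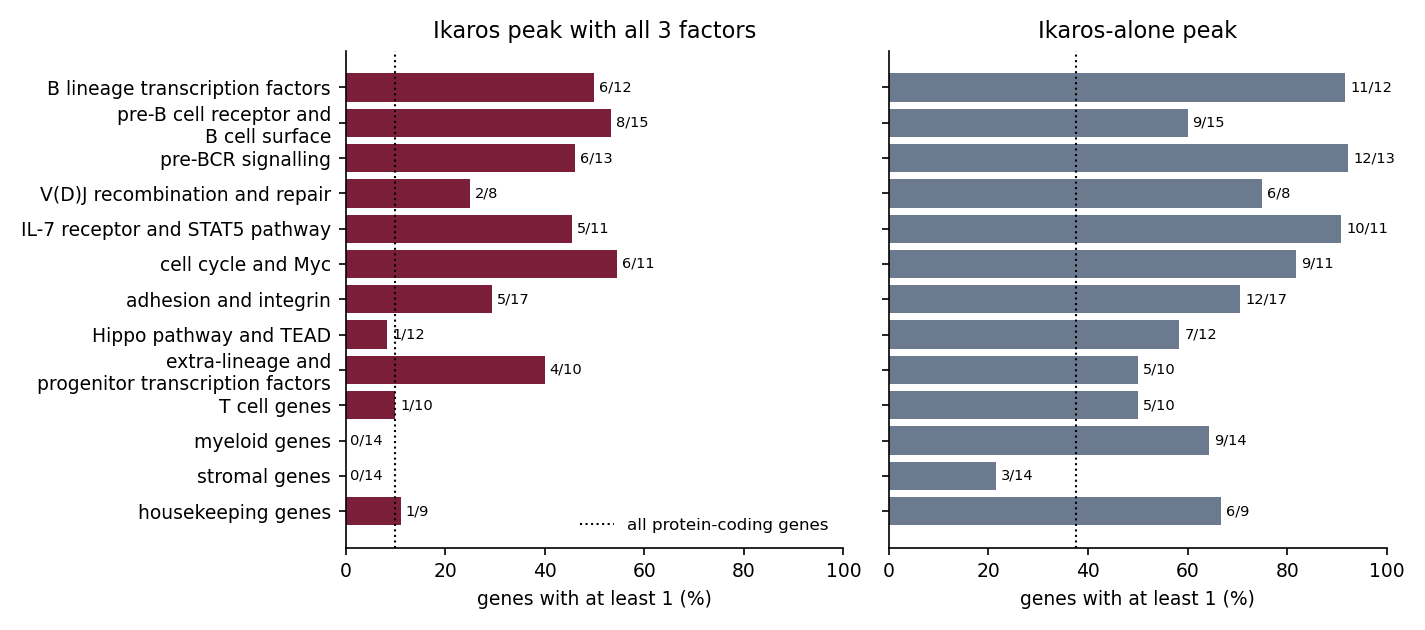
Share of the genes of each list (x axis, %; counts beside the bars) with at least 1 Ikaros peak with all 3 factors (left) or at least 1 Ikaros-alone peak (right), on chromosomes 1 and 10 to 19. The dotted line is the share over all protein-coding genes, 9.97% and 37.5%. The B cell lists stand to the right of it on both sides. So do most others, among them housekeeping (1 of 9 and 6 of 9) and extra-lineage genes (4 of 10 and 5 of 10). The myeloid and stromal lists have no all-3 gene, but with 14 genes each they are too short to tell this from 9.97%.

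The antigen receptor loci held dense groups of Ikaros peaks, which the deposited annotation files under neighbouring small genes. The Igh locus (chr12:113258768-116009954), the immunoglobulin heavy chain that pre-B cells have rearranged, held 183: 25 with all 3 factors, 42 with 2, 62 with 1 and 54 alone. All 25 all-3 sites and 19 of the 54 Ikaros-alone sites there were acetylated. 16 of the all-3 sites bear the name Mir6388, the gene name with the most of them. The Tcra locus (chr14:52427967-54224198), a T cell receptor locus that B cells do not rearrange, held 107: 4 with all 3 factors, 27 with 2, 40 with 1 and 36 alone. A430107P09Rik, the name with the most Ikaros-alone sites, 22, lies in it. The smaller Igl locus, a light chain locus (chr16:19026858-19260844), held 19, none with all 3. All-3 sites were 13.7% of the Ikaros peaks in Igh and 3.74% in Tcra, beside 6.31% of all Ikaros peaks. With 4 all-3 sites among 107 peaks in Tcra and none among 19 in Igl, neither locus can be told from the 6.31%. V gene segments are near copies of each other, and the part of reads shared between copies was not tested.

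After Mir6388 the names with the most all-3 sites were Zfp36l1 with 7, an RNA-binding protein that restrains division of pre-B cells, then Capn13, Cxcr4 and Tex14 with 5 each and 1700108F19Rik, 4930415F15Rik, 6720489N17Rik, Cmah, Eapp and Gm12159 with 4 each. The 7 sites of Zfp36l1 spread over 250 kb (chr12:79751763-80001938), all of them acetylated and none near a TSS. The names with the most Ikaros-alone sites after A430107P09Rik included Gm20125 and Mir7094-2 with 14 each, Gm12159 and Mir7094-1 with 13, and 4930459C07Rik, Lrrn3, Mir6388, Plxnc1 and Zfp608 with 12. Of the 14 sites at Gm20125 2 were acetylated, and of the 12 at Lrrn3 3 were. Plxnc1, a semaphorin receptor, was the one of these names with no all-3 site, and 9 of its 12 Ikaros-alone sites were acetylated.

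Of the all-3 sites 16 lay within 500 bp of a small nuclear RNA gene in RefSeq, out of 43 Ikaros peaks so placed, which is 37.2% beside 6.31% of all Ikaros peaks. Small nuclear RNAs work in splicing and in the processing of ribosomal RNA. The 16 had a median Ikaros score of 77.9, against 15.6 for all all-3 sites, and all 16 had H3K27ac, MED1 and RNA polymerase II. In 1 cluster of such genes on chromosome 11 the peaks at Gm24950, Gm23971, Rnu2-10 and LOC115487916 scored 152.3, 151.7, 145.3 and 125.3. In a separate cluster on the same chromosome, under the name Tex14, those at Rnu3b1, Rnu3b2, Rnu3b3 and Rnu3b4 scored 71.4 to 79.7. Copies in such an array are nearly identical, so how many of them are bound is uncertain, and the names Rdm1, Arl4d, Tex14 and Eapp at these sites are those of the nearest annotated TSS. At transfer RNA genes the count was 7 all-3 and 54 Ikaros-alone sites among 133 Ikaros peaks. These are 5.26% and 40.6%, near the 6.31% and 35.7% of all Ikaros peaks.

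Away from these arrays the highest-scored all-3 site lay at -18271 bp from the TSS of Ly6e, a GPI-anchored surface protein gene (chr15:74936692-74936868), with a score of 201.2 and EBF1, PAX5 and E2A scores of 105.8, 102.5 and 105.9. It had H3K27ac, H3K4me3 and MED1, as did the site nearest to Mir6906 (chr10:60168330-60168506, score 127.5), where PAX5 scored 290.4 and E2A 178.2. Near a TSS the highest were Hjurp (124.5), Pik3ap1 (118.4), Vcl (97.5) and Igll1 (93.4), after the small nuclear RNA copy next to Rdm1. The 2 highest-scored Ikaros-alone peaks lay next to each other in an intron of Snx29, a sorting nexin gene (chr16:11686622-11686798 and chr16:11687265-11687441, scores 208.4 and 226.2). Neither had a peak of H3K27ac, H3K4me1, H3K4me2, H3K4me3, H3K27me3, MED1 or RNA polymerase II, while both had Aiolos and IRF4 peaks. The Ikaros-alone site nearest to Cntn1 (chr15:91983151-91983327, 135.3) and the one nearest to Lrrc74 (chr12:86798856-86799032, 62.5) also had none of these, and both had Aiolos. The one nearest to Fgd2 (chr17:29395456-29395632, 91.1) differed, with H3K27ac, H3K4me3 and MED1. Near a TSS the highest Ikaros-alone sites, at Hmga1 (54.5), Zfp91 (51.7), Polr2a (43.9), 5730420D15Rik (43.6) and Cplx2 (40), all had H3K27ac and H3K4me3. Hmga1 codes for a chromatin architectural protein, Polr2a for the large subunit of RNA polymerase II and Cplx2 for complexin 2, a regulator of vesicle release.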

How the data were processed

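ChIP-seq peak lists of 16 WT samples were used, 1 per target, and the IKDN lists were left out. Per the submitters' processing notes bcl2fastq 1.8.3, BWA, STAR and HOMER were used, with the builds mm9 and mm10 named. The peak caller's settings and thresholds are not given in the sources used here. The authors deposited each peak's position, a peak score, whose scale is not stated, and the distance to the nearest TSS with its gene name. Of 21731 deposited TSS positions matched to RefSeq (GRCm38.p6) 99.7% lay within 1000 bp, and coordinates are given in that build. Chromosomes 1 and 10 to 19 were used because the E2A list was complete on 11 of 21 chromosomes. Overlaps were computed in Python 3.11.15 with pandas 2.3.3 and numpy 2.4.6, and checked on simulated intervals. Exact (Clopper-Pearson) 95% intervals of shares and Newcombe intervals of differences came from scipy 1.17.1 and cover counting error only. With 1 library per target no test was made. The genes named are Ikzf1, Ebf1 and Tcf3, the 10 names with the most all-3 or Ikaros-alone peaks with ties, the genes of the 5 highest-scored peaks, and list members with the most all-3 peaks or with Ikaros alone; other genes were chosen after their values were seen. Some genes that this rule names are not reported here. The members, lists and motifs were chosen with earlier results of these data known. The alternatives tried changed the overlap rule, score, list length, place, TSS distance, repeats and IRF4 overlap.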

Additional observations from a re-analysis of the deposited data

How the results depend on the processing

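No paired analysis was possible because each target has 1 library and the labels give no replicates. The depth of the libraries is unknown and limits every missing peak. The share of Ikaros peaks with any of the 3 factors was 64.3%. It was 58.2% with an overlap of at least 50% of the Ikaros peak, 63.2% with centres within 200 bp, 75% for peaks at or above the median score, 48.3% with factor lists of equal length (12900 peaks), 63.1% for distal peaks and 66.5% without repeat-annotated peaks. With EBF1 and PAX5 only it was 58.1% on all chromosomes and 58.4% on the 11. The share with all 3 was 3.90% by the 50% overlap, 10.9% above the median score, 4.07% with equal lists, 6.69% for distal peaks and 6.69% without repeats. The IRF4 settings and the repeat setting were chosen after seeing the data. Without PAX5 peaks that overlap IRF4 the share with any factor was 57.7% and with all 3 it was 2.35%, a setting that moves such sites into other classes. Without Ikaros peaks that overlap IRF4 these were 58.7% and 3.46%.

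The all-3 minus Ikaros-alone differences, in percentage points, moved as follows. By the 50% overlap the TSS-proximal difference was -10.3, that of H3K27ac 29.7 and that of H3K4me3 0.599. Above the median score the differences were -10.0 for TSS-proximal, 14.1 for H3K27ac, -4.52 for H3K4me3, a reversal, and -2.29 for H3K27me3. With equal lists they were 6.78, 40.9, 21.3 and -4.88 in the same order. For distal peaks H3K27ac differed by 44.5 and H3K27me3 by -2.02. A TSS distance of 1 kb gave a TSS-proximal difference of 2.20. Without PAX5 peaks that overlap IRF4 the 4 differences were -10.3, 21.9, -5.68, a reversal for H3K4me3, and -2.19. Without Ikaros peaks that overlap IRF4 the TSS-proximal difference was -5.23, that of H3K27ac 30.6 and that of H3K4me3 1.93. Without repeats the 4 were -4.61, 30.1, 4.28 and -4.94. The cause of these moves was not tested. Differences of H3K27ac above 0 and of H3K27me3 below 0 held under each of these settings run for them. The TSS distance of 1 kb was run for the TSS-proximal share only. The score groups are not among these settings. Within them the H3K27me3 difference at distal sites was 0.56 points in the second group and 0.16 in the top one. Each interval of the distal score groups includes 0. Over 13 gene lists and 8 settings, 79 counts of genes with an all-3 site stayed within 1.5 times the value reported and 25 did not. The myeloid and stromal counts were 0 throughout and are no sign of stability.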
